A study of Mus musculus with 8 samples.

Results

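The SOCS family holds the classical feedback inhibitors of cytokine receptors. A cytokine such as G-CSF, GM-CSF or interferon gamma binds its receptor, the JAK kinases bound to the receptor phosphorylate it, and STAT transcription factors are recruited, phosphorylated and moved to the nucleus. STATs then switch on SOCS genes, and the SOCS proteins bind the kinase or the receptor through an SH2 domain, block the signal and recruit a ubiquitin ligase through their SOCS box. In neutrophils, SOCS3 is best known as the brake on the G-CSF receptor. The 9 genes described here were Socs1 to Socs7, Cish, which encodes the related protein CIS, and Pias1, which acts in the nucleus and belongs to the separate PIAS family of SUMO ligases. The rule that picked them names the genes and uses no measured value, although results of these data were known when it was written, and they are 9 of the 55414 gene identifiers in the count tables. The filter on low counts kept 8 of them among the 16778 genes tested, and Socs2 did not pass it.

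RNA was sequenced from spleen neutrophils of 4 WT and 4 Cxcr2-/- mice, with 1 library per mouse. All animals were mice of 10 weeks on the FVB background, kept under specific and opportunistic pathogen-free conditions. The Cxcr2-/- line had been brought onto this background by repeated backcrossing. CXCR2 is the receptor for the chemokines that draw neutrophils out of the bone marrow, and the Cxcr2-/- animals lacked it constitutively and in every cell type. Neutrophils were taken as CD11b-selected cells and then sorted as CD45+ CD11b+ Ly6G+ F4/80- cells, a gate that can hold several stages of neutrophil maturation. Levels are given as CPM, a gene's share of all counts of its library after TMM scaling, and a gene was said to have passed when edgeR's quasi-likelihood test gave a Benjamini-Hochberg adjusted p under 0.05 over all genes tested.

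Gene counts summed to between 34220182 and 46233555 per WT library and to between 37549648 and 43789253 per Cxcr2-/- library. Cxcr2 itself stood at 1719 to 2252 CPM in WT and at 12.9 to 20.7 CPM in Cxcr2-/- libraries. Ly6g, which encodes the sorted antigen, lay at 166 to 263 CPM in WT and 488 to 597 CPM in Cxcr2-/-, and Itgam, which encodes CD11b, at 379 to 440 and 433 to 542 CPM. Of 14 granule and precursor genes of immature neutrophils, 14 were higher in Cxcr2-/-, and their summed level was 23580 to 28585 CPM in WT and 54211 to 76963 CPM in Cxcr2-/-. The Cxcr2-/- mice differed among themselves. In their replicates 1 to 4, Mpo was 19.1, 20.2, 81.2 and 146 CPM, while Ltf was 26104, 21782, 18959 and 17392 CPM. A change of RNA per cell and a change in the share of maturation stages within the gate therefore cannot be told apart for any gene below. The summed B cell and plasma cell markers reached 52.5 to 109 CPM in WT and 25.2 to 59.2 CPM in Cxcr2-/-, with 8 of 11 tested lower and 1, Jchain, higher. The dendritic cell list summed to 490 to 728 CPM in WT and 117 to 168 CPM in Cxcr2-/-, with 5 of 8 tested lower, most of it from Itgax. Monocyte and macrophage markers summed to 1120 to 1270 and 932 to 1154 CPM, with 3 of 13 lower and 3 higher, and Ccr2 among them was 34.4 and 45.7 CPM in Cxcr2-/- replicates 3 and 4 against 4.34 to 9.06 CPM elsewhere. T cell and NK cell markers summed to 102 to 121 and 100 to 144 CPM, with 1 of 8 lower and 1 higher, nearly all of it from Cd3d, while Cd3e was at most 0.563 CPM. WT replicate 2 stood out for some markers. Vcam1 was 22.2 CPM there and 1.79 to 6.90 CPM in the other WT mice. Flt3 was 10.2 against 1.27 to 3.01 CPM, and Cd4 was 14.1 against 1.27 to 5.17 CPM. The B cell marker Ms4a1 was lowest there among WT mice, at 4.68 CPM. Cish, Socs1, Socs2, Socs4 and Socs7 had their highest WT value in the same library, and the cause was not tested.

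The DNA letters next to Cish and Socs3 are shown first, because these genes are textbook STAT targets and one rose while the other fell. STAT dimers prefer the palindrome TTCNNNGAA, which reads the same on both strands. All members are protein-coding genes. The palindrome was searched in RefSeq promoter windows of 250 bases before to 50 bases after the gene start, on build GRCm38.p6, in which 5 of the 9 members had an entry. These windows show the reference strain and not FVB. Capitals mark the match, and the sequences are given 5′ to 3′ on the strand of the gene.
Cish: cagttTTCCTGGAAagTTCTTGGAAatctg
Socs3: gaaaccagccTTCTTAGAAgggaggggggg

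The Cish stretch is chr9:107296654-107296683 on the plus strand. It holds 2 matches, which start at positions 1 and 12 counted from 1 at the first base of the gene in RefSeq. GENCODE M21 places both in an untranslated exon of a protein-coding Cish transcript that begins upstream of them. The other Cish transcripts of M21, protein-coding ones among them, start downstream of both matches. The Socs3 stretch is chr11:117969501-117969530 on the minus strand, with its 1 match 154 bases before the RefSeq start and inside an intron of a noncoding Socs3 transcript of M21. The protein-coding Socs3 transcript of M21 starts further downstream, at chr11:117969186, and the window ends before it, at 117969317. The bases next to that start were therefore not searched, and the numbers of matches at Cish and Socs3 cannot be compared. Of all 32851 windows of this length, 8.30% held at least 1 match and 0.457% held at least 2. The windows of Socs1, Socs4 and Pias1 held none, which says only that these letters were not in those bases. Socs2, Socs5, Socs6 and Socs7 had no entry in the table.

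More members were lower than higher in neutrophils without CXCR2, and the largest change was the rise of Cish. Of the 8 members tested, 5 were lower (Socs1, Socs3, Socs5, Socs7 and Pias1), 2 were higher (Cish and Socs6) and Socs4 did not pass. Over all genes tested, 21% were lower and 23.7% were higher. The median log2 fold change was -0.43 over the 8 members and 0.01 over all genes. When a change of at least 1.5-fold was required in addition, Socs5 was the 1 member lower and Cish the 1 member higher, against 15.7% of all genes in the lower and 15.7% in the higher direction. In 5 members the values of the 4 Cxcr2-/- mice did not overlap those of the 4 WT mice, as in 41.6% of all genes tested. With a covariate for the markers of other cell types, 5 members were lower and 2 higher as before, and Cish had a log2 fold change of 1.55.

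**Figure D1:**
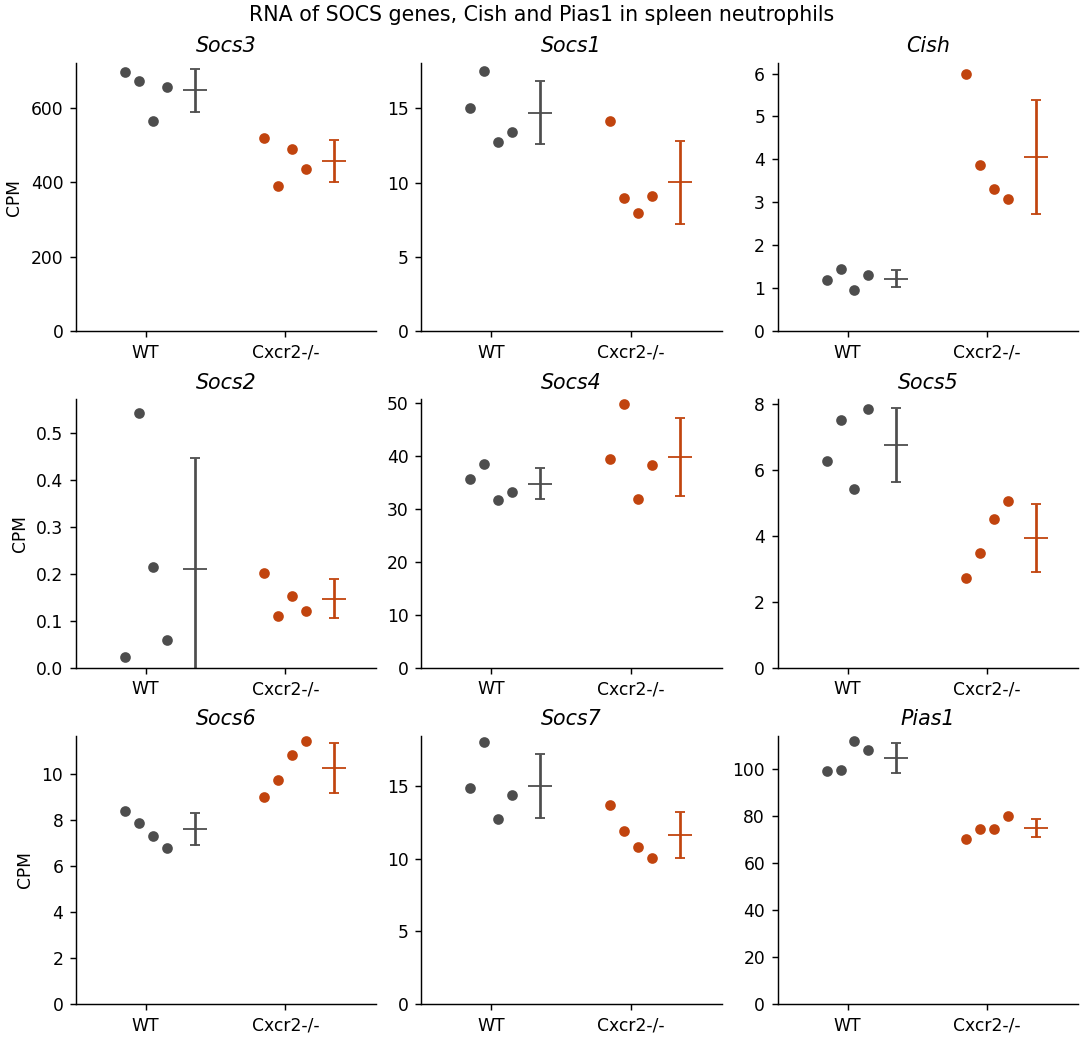
RNA level in CPM of each member, with 1 point per mouse (4 WT in grey and 4 Cxcr2-/- in orange) and the mean with its SD beside the points. Cish rose from about 1 CPM to between 3.09 and 5.99 CPM, Socs3, Socs5 and Pias1 lay lower in every Cxcr2-/- mouse, and the lower SD bar of Socs2 in WT runs past 0.

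Socs3 (chr11:117966079-117970047, minus strand, GRCm38, GENCODE M21, as for the positions below) was by far the most abundant SOCS RNA in both genotypes. SOCS3 binds the phosphorylated receptors for G-CSF and IL-6 and inhibits JAK kinases there. Its level was 697, 672, 565 and 656 CPM in WT replicates 1 to 4 and 518, 390, 489 and 437 CPM in Cxcr2-/- replicates 1 to 4. Each Cxcr2-/- mouse lay below each WT mouse, and the log2 fold change was -0.50 (SE 0.11), with an edgeR adjusted p of 0.00352.

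Per kilobase of merged exon, Socs3 reached 224 CPM in WT (SD 19.9, n = 4) and 159 CPM in Cxcr2-/- (SD 19.6, n = 4). It made up 93.5 to 94.4% of the summed level per kilobase of the 7 SOCS genes and Cish in WT libraries, and 90.6 to 93.9% in Cxcr2-/- libraries. The next gene in order was Pias1, at 15.4 CPM per kilobase in WT and 11.0 CPM per kilobase in Cxcr2-/-. Socs4 and Socs1 followed in WT, both at 5.06 CPM per kilobase and with ranges that overlapped. Below them in WT came Socs7 at 2.07, Socs5 at 1.05, Socs6 at 0.669, Cish at 0.191 and Socs2 at 0.0219 CPM per kilobase, and on merged exons the ranges of neighbours in this lower stretch did not overlap.

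In Cxcr2-/- the lower end of that order was different. Socs4 stood at 5.80 CPM per kilobase and Socs1 at 3.45 CPM per kilobase, with ranges of 4.65 to 7.25 and 2.73 to 4.86. Socs6 at 0.903, Cish at 0.633 and Socs5 at 0.615 CPM per kilobase came after Socs7 at 1.60. Cish ranged from 0.481 to 0.933 and Socs5 from 0.426 to 0.788, and the range of Cish also overlapped that of Socs6, so that the order of these neighbours was within their spread. When the longest protein-coding transcript replaced the merged exons, Socs6 moved ahead of Socs7 in Cxcr2-/-, at 1.70 against 1.66 CPM per kilobase, with overlapping ranges. In WT the ranges of Socs5 (1.17 to 1.69) and Socs6 (1.13 to 1.39) then overlapped too, and Cish stood at 0.430 CPM per kilobase.

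Cish (chr9:107296026-107302784, plus strand) rose the most of the members. CIS is induced by STAT5 downstream of GM-CSF, IL-3, IL-2, erythropoietin and prolactin, and it competes with STAT5 for the receptor. Its level was 1.19, 1.45, 0.962 and 1.30 CPM in WT and 5.99, 3.87, 3.30 and 3.09 CPM in Cxcr2-/- mice. All 4 Cxcr2-/- mice lay above all 4 WT mice, with replicate 1 the highest. These levels rest on 36 to 72 counts per WT library and 127 to 237 counts per Cxcr2-/- library. The log2 fold change was 1.72 (SE 0.25), or 3.30-fold with a 95% interval of 2.26 to 4.82, and the edgeR adjusted p was 1.42e-04. Without Cxcr2-/- replicate 1, the log2 fold change was 1.48. The opposite-strand genes Gm17041 and Gm17040 cover 7.46% and 4.07% of the exon bases of Cish, and both were at 0 counts in every library.

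Socs1 (chr16:10782240-10785536, minus strand) was lower in 3 of the 4 Cxcr2-/- mice. SOCS1 binds JAK kinases directly and is the main brake on interferon gamma signaling. Its level was 15.1, 17.5, 12.8 and 13.4 CPM in WT and 14.1, 8.94, 7.93 and 9.09 CPM in Cxcr2-/- mice. Replicate 1 of the Cxcr2-/- group lay within the WT range and the other 3 lay below it. Over all mice, the log2 fold change was -0.55 (SE 0.18), with an edgeR adjusted p of 0.0233. Without Cxcr2-/- replicate 1 the log2 fold change was -0.76 with an adjusted p of 0.00111. The call was lost without WT replicate 1 (adjusted p 0.0521), WT replicate 2 (0.0567), Cxcr2-/- replicate 2 (0.0642) or Cxcr2-/- replicate 3 (0.0539).

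Socs2 (chr10:95385362-95417180, minus strand), which limits growth hormone signaling, was at the edge of detection in these cells. It had 1, 27, 8 and 2 counts in the WT libraries and 8, 4, 6 and 5 counts in the Cxcr2-/- libraries, which is at most 0.543 CPM. The highest value was that of WT replicate 2. No difference was detectable at this depth, with an adjusted p of 0.616 when edgeR's quasi-likelihood test was run without the filter.

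The less studied members with long N-terminal regions, Socs4 to Socs7, did not move together. Socs5 (chr17:87107679-87137839, plus strand), whose protein is known to act on the EGF receptor and on IL-4 signaling, fell. Its level was 6.26, 7.52, 5.43 and 7.84 CPM in WT and 2.73, 3.49, 4.50 and 5.06 CPM in Cxcr2-/- mice. Behind these values are 203 to 374 counts per WT library and 108 to 208 counts per Cxcr2-/- library. The groups did not overlap, and the log2 fold change was -0.78 (SE 0.21), with an edgeR adjusted p of 0.00877.

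Socs6, on chromosome 18, rose. SOCS6 binds receptor tyrosine kinases such as KIT and FLT3. Its level was 8.40, 7.86, 7.32 and 6.80 CPM in WT and 9.0, 9.74, 10.8 and 11.4 CPM in Cxcr2-/- mice. The groups came close without overlapping, between WT replicate 1 and Cxcr2-/- replicate 1. Its log2 fold change was 0.43 (SE 0.13), with an edgeR adjusted p of 0.0176. The call was lost without WT replicate 3 (adjusted p 0.0621), WT replicate 4 (0.0549), Cxcr2-/- replicate 3 (0.0596) or Cxcr2-/- replicate 4 (0.0696), and under upper-quartile scaling, where the log2 fold change was 0.31 with an adjusted p of 0.0741.

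Socs7 (chr11:97362551-97398542, plus strand), which encodes an adaptor known from insulin signaling, was slightly lower. Its level was 14.9, 18.1, 12.7 and 14.4 CPM in WT and 13.7, 12.0, 10.8 and 10.0 CPM in Cxcr2-/- mice. Cxcr2-/- replicate 1 lay above WT replicate 3, so the groups overlapped. Socs7 had a log2 fold change of -0.37 (SE 0.14) and an edgeR adjusted p of 0.0450, close to the threshold. It was no longer past it without WT replicate 1 (adjusted p 0.0768), WT replicate 2 (0.110), WT replicate 4 (0.0708), Cxcr2-/- replicate 2 (0.0740), Cxcr2-/- replicate 3 (0.0862) or Cxcr2-/- replicate 4 (0.0916).

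Socs4 (chr14:47276931-47296102, plus strand), which like Socs5 is linked to the EGF receptor, had 35.7, 38.5, 31.8 and 33.2 CPM in WT and 39.4, 49.9, 32 and 38.3 CPM in Cxcr2-/- mice. The ranges overlapped, and the log2 fold change was 0.20 with a 95% interval of -0.08 to 0.47 (edgeR adjusted p 0.230).

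Pias1 (chr9:62878368-62987924, minus strand) was lower in every Cxcr2-/- mouse and had the smallest SE of the members tested. PIAS1 is a nuclear ligase that attaches SUMO to transcription factors. Its level was 99.3, 99.9, 112 and 108 CPM in WT and 70.4, 74.5, 74.7 and 80.2 CPM in Cxcr2-/- mice. The log2 fold change was -0.49 (SE 0.08), with an edgeR adjusted p of 4.89e-04.

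**Figure D2:**
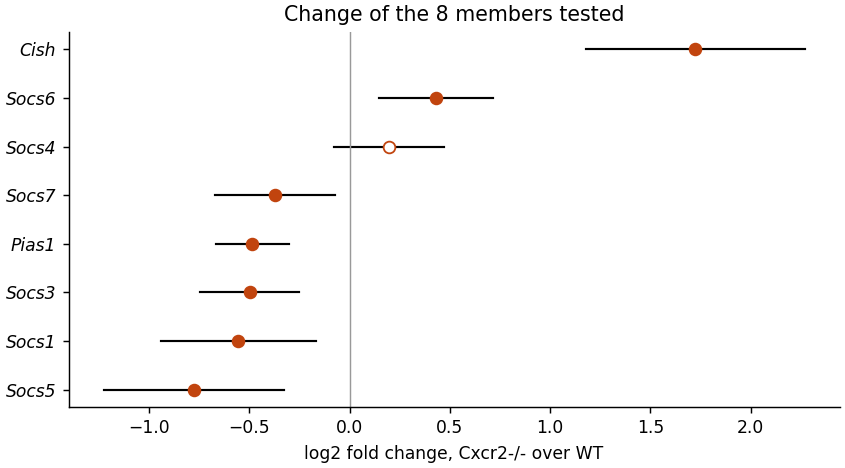
Log2 fold change of the 8 members tested, Cxcr2-/- over WT, with 95% intervals. Filled points passed an adjusted p under 0.05. The intervals of Cish and Socs6 lie above 0, that of Socs4 spans 0 from -0.08 to 0.47, and the other 5 lie below 0.

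The genes of the 4 JAK kinases did not change in 1 direction. Jak1 and Jak2, which serve the gp130 receptors and, for Jak2, the receptors for G-CSF and GM-CSF, were both lower, with log2 fold changes of -0.41 (edgeR adjusted p 0.00554) and -0.45 (adjusted p 0.00116). Jak3, the partner of the common gamma chain of the receptors for IL-2, IL-4 and related cytokines, rose from 33, 37.0, 32.8 and 29.1 CPM in WT to 154, 112, 123 and 108 CPM in Cxcr2-/- mice. Its log2 fold change was 1.91 (SE 0.12), with an edgeR adjusted p of 3.03e-07. For Tyk2 the adjusted p was 0.0576, with a log2 fold change of 0.26.

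Of 6 STAT genes, 3 were lower and 1 was higher. Stat4, which carries IL-12 signals, fell from 24.7, 32.2, 25.9 and 26.9 CPM in WT to 2.43, 3.32, 1.83 and 2.96 CPM in Cxcr2-/- mice, a log2 fold change of -3.38 (SE 0.18). Stat5b and Stat6 fell by 0.55 and 0.66 on the log2 scale. The levels of Stat3, the factor downstream of G-CSF and IL-6, were 496 to 563 CPM in WT and 519 to 630 CPM in Cxcr2-/-, and its log2 fold change was 0.09 (edgeR adjusted p 0.510), or -0.03 under upper-quartile scaling. Stat5a did not pass, with a log2 fold change of -0.23 (edgeR adjusted p 0.0654), but did so without Cxcr2-/- replicate 1, at -0.29 with an adjusted p of 0.0180, under upper-quartile scaling (-0.35, adjusted p 0.00739), with a minimum of 10 counts in every library (-0.26, adjusted p 0.0223) and with the covariate for markers of other cell types (-0.29, adjusted p 0.0325).

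Stat2, which acts in the response to type I interferon, was the STAT gene that was higher. It had 28.0, 32.6, 24.7 and 31.7 CPM in WT and 68.3, 40.0, 33.4 and 35.3 CPM in Cxcr2-/- mice. The log2 fold change was 0.60, with an edgeR adjusted p of 0.0268, and without Cxcr2-/- replicate 1, the highest library, it was 0.31 with an adjusted p of 0.0472. The call was lost without WT replicate 1 (adjusted p 0.0644) or WT replicate 3 (0.0789), under upper-quartile scaling (0.0638) and with a covariate for markers of other cell types (0.101).

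Among 28 receptors that use JAK kinases, 20 were tested, of which 5 were lower and 6 were higher. Csf3r, the G-CSF receptor that SOCS3 restrains, fell from 6504 to 7470 CPM in WT to 3164 to 3513 CPM in Cxcr2-/-, a log2 fold change of -1.06 (SE 0.11). Lifr and Il10ra, receptors for LIF and IL-10, fell by 1.34 and 0.94 on the log2 scale. Csf2rb2, a mouse receptor chain for IL-3, rose by a log2 fold change of 1.35. Csf2rb, the chain shared by the receptors for GM-CSF, IL-3 and IL-5, rose by 0.44 and is named here for its likeness to Cish, given below, and not for its size. Csf2rb and Csf2rb2 are close paralogs, so that reads they share are uncertain in the counting. Of 17 ligands that induce SOCS genes, 3 were tested, and oncostatin M (Osm) was lower with a log2 fold change of -1.04.

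The inhibitors were also set against their own receptors within each library, as ratios of counts that do not depend on the scaling. These ratios were chosen after the values were seen and are given without a test. Socs3 had 9.65, 10.3, 8.51 and 8.78 counts per 100 counts of Csf3r in WT and 14.8, 12.3, 14.5 and 13.3 in Cxcr2-/- mice. Both RNAs were lower in Cxcr2-/- neutrophils, and Socs3 was higher relative to the G-CSF receptor RNA in each Cxcr2-/- mouse than in any WT mouse.

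Cish had 1.60, 1.95, 1.42 and 1.70 counts per 1000 counts of Csf2rb in WT and 5.28, 3.91, 3.54 and 3.41 in Cxcr2-/- mice. It thus stood higher in Cxcr2-/- also per count of the receptor chain that itself rose. Per 1000 counts of Socs3, Cish had 1.89 counts in WT (SD 0.220, n = 4) and 8.82 in Cxcr2-/- (SD 2.32, n = 4). The lowest of the Cxcr2-/- values, 6.75, lay above the highest WT value, 2.15.

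**Figure D3:**
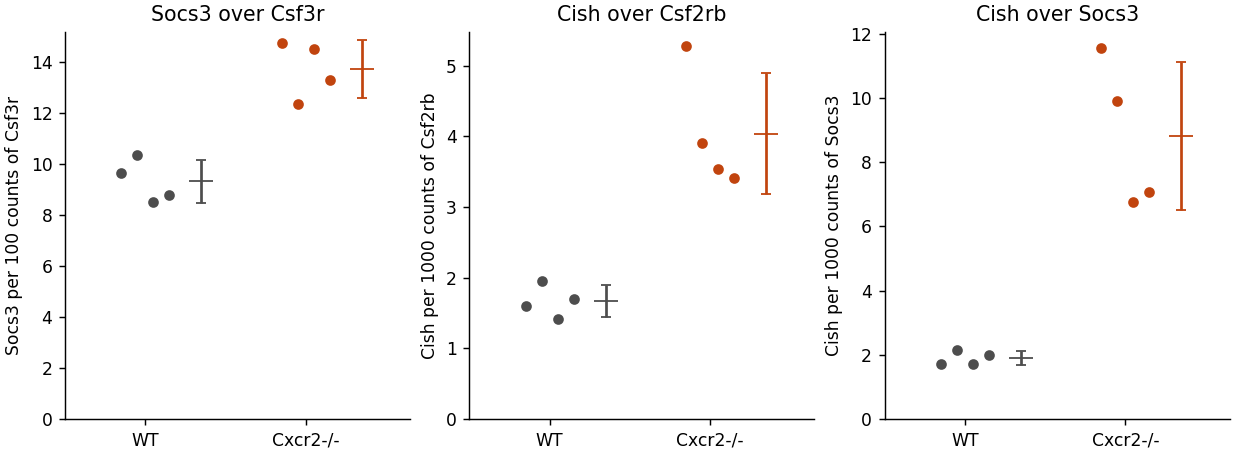
Ratios of raw counts within each library, Socs3 per 100 counts of Csf3r, Cish per 1000 counts of Csf2rb and Cish per 1000 counts of Socs3, with 1 point per mouse and the mean with its SD. In the 3 panels every Cxcr2-/- point lies above every WT point, and in the Socs3 panel the means are 9.32 and 13.7.

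Target genes of Stat3 and Stat5 other than the SOCS genes moved in both directions, with 7 of 17 tested lower and 4 higher. The shares over all genes tested were 21% lower and 23.7% higher. Fos and Junb, which encode AP-1 factors, fell by 2.82 and 1.57 on the log2 scale, and Ccnd2, a cyclin gene, by 1.73. The other lower genes were Osm (log2 fold change -1.04), Cebpb (-1.01), Pim1 (-0.98) and Mcl1 (-0.82). The 4 higher were Ccnd3, another cyclin gene (log2 fold change 0.85), Bcl2l1 (0.80), Il4ra (0.72) and Bcl3 (0.69). Cebpb, Pim1, Mcl1 and the 4 higher genes are named here outside the rule for the largest changes. Fos and Junb also answer to MAPK signals, and Osm is both a target and a ligand in these lists.

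Among the genes of the ubiquitin ligases that SOCS box proteins join, more were higher than lower. Of 8, 5 were higher and 1 was lower, against 23.7% and 21% of all genes tested. Cul5, the cullin that SOCS proteins use, had a log2 fold change of 0.09 (edgeR adjusted p 0.589), and Arih2, which works with that cullin, fell by 0.50 on the log2 scale, both named here outside the rule for the largest changes. Those with the largest changes were Cul2, another cullin (log2 fold change 0.91), Rnf7 (0.69) and Rbx1 (0.65), RING subunits, and Ube2f (0.66), the NEDD8-conjugating enzyme that serves the cullin partner of SOCS proteins. Ube2f stood at 31.6 to 32 CPM in WT and at 47.5 to 51.5 CPM in Cxcr2-/- mice. Of 16 other tested genes for SOCS box proteins, 3 were lower and 4 higher. Wsb1 fell by 0.68 on the log2 scale and Asb2, high in WT replicate 2 at 22.8 CPM against 3.47 to 8.31 CPM in the other WT mice, by 1.73, while Spsb2 and Asb7 rose by 0.47 and 0.43. With a covariate for markers of other cell types, the log2 fold change of Asb2 was -0.99 with an edgeR adjusted p of 0.0946.

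Unlike Pias1, 0 of the 10 other PIAS and SUMO genes were lower by edgeR's quasi-likelihood test or by DESeq2, with 1 lower at an unadjusted p under 0.05, and 5 were higher. Sae1 and Uba2, the subunits of the SUMO-activating enzyme, rose by 0.78 and 0.44 on the log2 scale. Senp1, a SUMO protease, rose by 0.54 and Sumo3 by 0.53. Of 10 other inhibitors of JAK signaling, 2 were lower and 1 was higher. Ptprc, which encodes the phosphatase CD45, fell by 0.77 and the phosphatase gene Dusp2 by 2.32, while Ptpn11, which encodes SHP2, rose by 0.66.

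**Figure D4:**
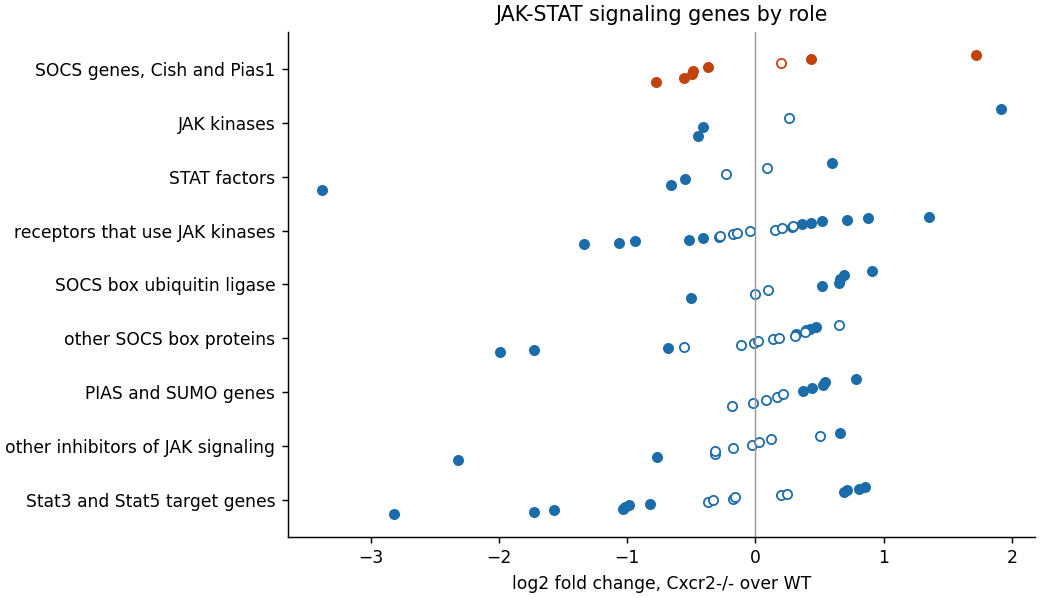
Log2 fold change, Cxcr2-/- over WT, of each tested gene by role in JAK-STAT signaling, with the members in orange and other genes in blue. Filled points passed an adjusted p under 0.05. On the left, the points farthest from 0 are Stat4 at -3.38, Fos at -2.82 and Dusp2 at -2.32. On the right, where changes reach less far, they are Jak3 at 1.91 and Cish at 1.72.

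The genes whose pattern over the 8 libraries was most like that of a member were sought among the 4213 genes whose average log2 CPM was 5 or more, by Pearson's r of log2(CPM + 1), as a description. The points share the difference between genotypes, so r was also taken on the deviations from the genotype means. For Cish they were Mfn2, Csf2rb and Acly, each with r = 0.99. Within genotypes their r was 0.98, 0.96 and 0.94, and the Csf2rb levels were 747, 740, 678 and 764 CPM in WT and 1134, 991, 933 and 905 CPM in Cxcr2-/- mice, with replicate 1 the highest as for Cish. For Socs1 they were Cd274, Gm17334 and Irf1, with r of 0.98, 0.97 and 0.96 and within genotypes 0.95, 0.94 and 0.90. Irf1, which encodes an interferon-induced transcription factor, stood at 333, 387, 265 and 339 CPM in WT and at 311, 134, 161 and 176 CPM in Cxcr2-/- mice, with WT replicate 2 and Cxcr2-/- replicate 1 the highest of their groups as for Socs1. For Socs3 they were Tgfb1 (0.97), Map3k14 (0.97) and Lfng (0.96), with 0.97, 0.86 and 0.85 within genotypes. For Socs2, whose counts are very low, they were Lgals8 (0.92), Huwe1 (0.83) and Sfpq (0.81), which all have their highest value in WT replicate 2.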

How the data were processed

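Total RNA of sorted spleen neutrophils was depleted of ribosomal RNA and made into directional libraries. According to the methods and the submitters' processing notes, reads were checked with FastQC, trimmed, aligned to mm10 with STAR and counted with HTSeq. The authors deposited raw counts per gene, without normalization. The strand setting and the annotation release are not given in the sources used here. Of 55414 gene identifiers, 52081 have a GENCODE M21 entry, which gave symbols, exon lengths and positions. Only 35 of them carry the same version number and 2147 identifiers begin with a newer prefix, so the counting used a later release, and levels per kilobase and exon overlaps rest on M21 exons that may differ from those counted. Pairs on no gene made up 31.4 to 41.5% in WT and 26.7 to 31.9% in Cxcr2-/- libraries and were left out.

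Groups were taken from the sample labels. Counts were tested with edgeR 4.0.16 (R 4.3.3), with TMM scaling, filterByExpr, glmQLFit and glmQLFTest, over 16778 genes, with no covariate and Benjamini-Hochberg adjustment. The scripts were checked on simulated data. The libraries of a group differed by more than counting noise. Nothing in the labels ties a library to a culture or day, so p-values measure the spread between these libraries. CPM rest on 34220182 to 46233555 counts per library, whose counting error is small except for Socs2, Cish and Socs5. Alternatives were DESeq2 1.42.0, other scalings and filters, a covariate (mean log2 level of markers of other cell types), a replicate block and leaving out each library. Levels between genes were compared per kilobase of merged exon.

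The members and gene lists were chosen with earlier results of these data known. Of each pathway list, up to 4 genes with the largest absolute log2 fold change among those that passed, and with a mean log2 CPM of 2 or more, were named, and any JAK or STAT gene. Marker genes were named to show a level, and genes named otherwise are said to be. Some genes of the lists are not reported here.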

Additional observations from a re-analysis of the deposited data

Results flagged for a closer look

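None of the 9 members had a library set apart from the other 3 of its group by Dixon's criterion, which compares the gap to the nearest value with the range of the group. Among the 86 groups of 4 tested for the members and most pathway genes named in the report, 1 passed it, and chance alone gives about 1 in 20. Il10ra stood at 225 CPM in WT replicate 2, against 154 to 161 CPM in the other WT mice.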

How the results depend on the processing

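The calls of 5 members (Cish, Socs3, Socs4, Socs5 and Pias1) were the same under all 15 alternatives, and no member changed direction. The replicate block left 5 members lower and 2 higher. The labels do not say whether the replicate numbers pair the mice. Deviations from the genotype means correlated at -0.31 to 0.24 for 4 same-number pairs and at -0.27 to 0.30 for 12 others. With so few pairs, these values cannot settle it. The members lower numbered 3 to 5 and the members higher 1 to 2 when 1 library was left out. Upper-quartile scaling moved the median of all genes by -0.12, left 1 member higher, and turned the split of all genes from 3526 lower and 3969 higher into 4391 and 3076. Under it there were 0 STAT genes higher, 2 other SOCS box genes higher, 1 PIAS or SUMO gene lower and 4 other JAK inhibitors lower, and Stat3 was at -0.033. Upper-quartile scaling, the covariate and the stricter filter each gave 4 STAT genes lower. The covariate gave 0 STAT genes higher and 2 other JAK inhibitors higher. The other JAK inhibitors higher were also 2 under DESeq2 and with no filter, and the stricter filter of 10 counts gave 1 PIAS or SUMO gene lower. Leaving out 1 library gave 3 to 4 STAT genes lower and 0 to 1 higher, 2 to 4 other SOCS box genes higher, and 2 to 4 other JAK inhibitors lower and 1 to 2 higher. The cause of these shifts was not tested. Depth limits Socs2 and the precision of Cish and Socs5.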
